A study of Mus musculus with 3 samples.

Results

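Pi16 Dpep1 fibroblasts were dermal fibroblasts of mouse skin in which at least 2 of the 4 genes Pi16, Dpep1, Tnfaip6 and Cpxm1 were detected, with more detected genes from this set than from any of 6 other sets of 4 genes. The cells were thus chosen by the measured counts of those genes. By this rule there were 679 cells in the metformin library and 2052 in the control library, 2731 of 6498 gated fibroblasts and of 23292 kept cells. A kept cell had at least 800 UMIs (unique molecular identifiers, 1 per counted transcript), at least 300 genes and at most 20% mitochondrial counts. A gated fibroblast also had at least 20 UMIs of Col1a1, Col1a2, Col3a1 and Dcn together, fewer than 30 of Krt5 and Krt14 together and 0 of Ptprc, the leukocyte common antigen.

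The series profiled skin from C57BL/6 mice at postnatal week 7 by droplet single-cell RNA sequencing, in a study of hair growth under the natural product Shi-Bi-Man. The labels gave 3 agents, with 1 library each, and the libraries compared here were those labelled metformin and control. Metformin is a biguanide drug that inhibits respiratory chain complex I. What the control animals received, the dose, the route, the treated site and the number of mice pooled per library are not stated in the labels. With 1 library per agent, no p-value was computed between the agents, and the agent cannot be told apart from the animals, the dissection or the run.

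Fibroblasts of the skin differ by depth and niche. Pi16, a secreted peptidase inhibitor, marks adventitial fibroblasts in many mouse organs, cells that sit around vessels and in fascia and that also carry Dpp4, Cd34 and Ly6c1. Dpep1 encodes a membrane dipeptidase that cleaves leukotriene D4, Tnfaip6 encodes the hyaluronan-binding protein TSG-6, and Cpxm1 encodes a secreted carboxypeptidase-like protein. In the hair cycle the dermis around growing follicles is remodelled, and fibroblasts there change their matrix and their signals.

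The levels of the 4 defining genes are a description, since their detection chose the cells. In GRCm38 coordinates, Pi16 lies on chromosome 17 (29317680 to 29330593), Dpep1 on chromosome 8 (123186242 to 123201812), Tnfaip6 on chromosome 2 (52038009 to 52056686) and Cpxm1 on chromosome 2 (130390775 to 130397574). Levels are CPM, the summed counts of a gene in a group of cells scaled to a fixed total, and Pi16 stood at 1982 in metformin members and 2540 in control members. Dpep1 stood at 493 CPM in metformin members and 677 CPM in control members, Tnfaip6 at 693 and 1147 CPM, and Cpxm1 at 345 and 295 CPM. The 2 markers outside the rule, Cxcl12 and Timp1, were higher in members than in the other gated fibroblasts of both libraries, with values given further on. The fibroblast genes Lum and Pdgfra were at 2725 and 364 CPM in metformin members and at 3045 and 312 CPM in control members. Pi16 was not highest in the members in every case. In the small set led by Plac8, Sfrp4, Myoc and Smpd3 it stood at 1671 CPM in the metformin library and 3171 CPM in the control library.

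Depth differed between the libraries. The metformin library held 92341365 UMIs over 12092 barcodes and the control library 71345558 over 12108. Members had a median of 4052 UMIs and 1673 genes in the metformin library, against 2924 UMIs and 1355 genes in the control library, and the other gated fibroblasts had 4025 and 2796 UMIs. The libraries shared 41 barcodes, none of them between members. Scrublet called 34 metformin members (5.01%) and 59 control members (2.88%) as doublets, and these were kept because the rule has no doublet step.

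Keratinocyte RNA was present in the members. The summed level of Krt5, Krt14, Krt1, Krt10 and Krt15 was 1294 CPM in metformin members and 2286 CPM in control members, with a UMI of any of them in 59.8% and 45.4% of cells. The median among cells with any was 1 such UMI, and 25 metformin and 58 control members held at least 10. All 5 markers of T cells and of macrophages had UMIs in both groups, at summed levels of 3.02 and 8.54 CPM (T cell) and of 48.9 and 46.0 CPM (macrophage) in metformin and control members. The 4 hair keratinocyte markers summed to 93.0 CPM in metformin members and 0.145 CPM in control members, where Krt25, Krt71 and Krt28 were at 0. Haemoglobin Hba-a1 and Hbb-bs summed to 203 and 4.78 CPM, with the metformin counts in 0.295% of cells. Mural and endothelial markers summed to 86.7 and 13.9 CPM in metformin members and to 117 and 18.7 CPM in control members. The adipocyte gene Adipoq was at 0 in both. The part of this RNA from other cells in the results was not tested, except where a value without keratinocyte-positive cells is given.

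The rule drew its boundary as follows. All 4 were detected in 241 metformin members (35.5%) and 559 control members (27.2%), 3 in 276 (40.6%) and 1023 (49.9%), and 2 in 162 (23.9%) and 470 (22.9%). The margin over the next set was 1 gene in 366 metformin members (53.9%) and 1022 control members (49.8%). Just outside the rule, 405 metformin and 797 control fibroblasts had at least 2 of the 4 genes but were tied with another set. Their Pi16 level was 1478 CPM in the metformin library and 1729 CPM in the control library, against 1156 and 2263 CPM in members with 2 of the 4 genes. A further 345 and 459 fibroblasts had at least 2 of the genes but more of another set.

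Pi16 Dpep1 fibroblasts made up less of the fibroblasts in the metformin library. They were 30.2% of gated fibroblasts there (exact interval 28.3 to 32.1%) and 48.3% in the control library (46.8 to 49.8%), a difference of -18.1 percentage points. Of all kept cells they were 5.78% (5.37 to 6.22%) in the metformin library and 17.8% (17.1 to 18.5%) in the control library. Gated fibroblasts as a whole were 19.2% and 36.8% of kept cells. All intervals are 95% Clopper-Pearson or exact conditional binomial intervals and cover counting error only, not the variation between mice. With every cell thinned to 1500 UMIs and the rule applied again, members were 514 of 2064 metformin fibroblasts (24.9%) and 1702 of 3714 control fibroblasts (45.8%), and 184 and 536 shallower fibroblasts were left out.

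Another fibroblast set stood the other way in these shares. The set led by Col11a1, Lrrc15, Tnmd and Acan held 15.2% of gated fibroblasts in the metformin library and 1.51% in the control library. With that set left out of the denominator, the members were 35.6% (33.5 to 37.8%) and 49.0% (47.5 to 50.5%). There were 3.11 members per cell of the set Cyp2f2, Cpz, Ccl11 and Osr2 in the metformin library (2.67 to 3.64) and 4.16 in the control library (3.77 to 4.60). The members were the largest of the 7 sets in both libraries.

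**Figure D1:**
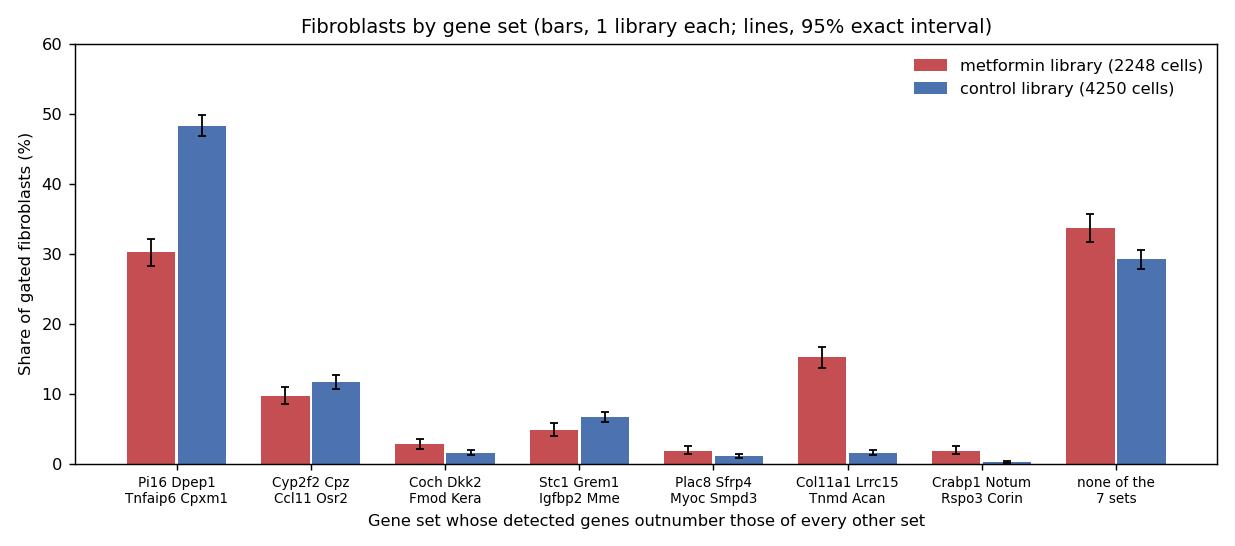
Share of gated fibroblasts (%, vertical axis) assigned to each of the 7 gene sets or to none of them, in the metformin library (red, 2248 cells) and the control library (blue, 4250 cells); lines are 95% exact intervals. The members, at the left, held 30.2% and 48.3%, and the Col11a1 set held 15.2% and 1.51%.

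Among the other 6 sets, the summed profile of the Cyp2f2 set was most like that of the members. Across 8398 genes in the metformin library the correlation of log2(CPM + 1) was 0.932, and across 8163 genes in the control library it was 0.963. The set Stc1, Grem1, Igfbp2 and Mme came next among the sets, at 0.886 and 0.914. The gated fibroblasts of no set were at 0.896 in the metformin library and at 0.985 in the control library, where they were closer to the members than the Cyp2f2 set was. Genes are not independent replicates, and these values describe the profiles only.

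Beyond the genes of the rule, the members were higher than the other gated fibroblasts in genes for a chemokine, lipid handling, extracellular enzymes and inhibitors, and inflammatory signals. Of 11894 genes with at least 20 counts in each library, 35 were at least 2-fold higher in members in both libraries (0.294%) and 268 were at most 0.5-fold (2.25%). These are descriptions, since the cells were chosen on the same counts. The libraries were unequal here, with 463 genes at least 2-fold higher in members in the metformin library and 63 in the control library. In the metformin library 329 of the 1569 other gated fibroblasts had none of the 4 genes, against 208 of 2198 in the control library, so the comparator itself differed.

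Cxcl12, the chemokine ligand of Cxcr4, was at 505 CPM in members and 106 CPM in other fibroblasts of the metformin library, and at 427 and 127 CPM in the control library. The ratios were 4.76 (4.39 to 5.15) and 3.37 (3.13 to 3.63). Against the Cyp2f2 set, with 137 CPM in the metformin library and 140 CPM in the control library, the order was the same. A Cxcl12 UMI was found in 53.3% of metformin members and 45.7% of control members, against 1.16% and 0.915% of T cells, whose median depths were 2401 and 2371 UMIs. At 1500 UMIs per cell the shares were 36.2% and 33.3% of members.

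Lipid and retinol genes stood out among the rest. Rbp4, the retinol carrier, was at 85.5 CPM in members and 6.46 CPM in other fibroblasts of the metformin library, and at 58.9 and 19.7 CPM in the control library. Its ratios, 13.2 and 2.99, differed most between the libraries of the 12 genes named for being high in members. Lpl, which releases fatty acids from lipoproteins, reached 325 CPM against 80.9 CPM in the metformin library, and 201 CPM against 80.1 CPM in the control library. Pltp, which transfers phospholipids between lipoproteins, had ratios of 2.79 and 2.37. T cells also held Pltp at 81.7 and 78.5 CPM, so that gene was not restricted to stroma.

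Among enzymes and inhibitors, Pcsk5, a proprotein convertase, was at 148 CPM against 30.9 CPM in the metformin library a ratio of 4.78 (4.12 to 5.54), and its ratio was 2.15 (1.86 to 2.49) in the control library. Alpl, tissue-nonspecific alkaline phosphatase, was at 60.7 CPM against 24.4 CPM and at 120 CPM against 29.3 CPM, a ratio of 2.49 (2.05 to 3.02) and of 4.08 (3.51 to 4.76). Timp1, a metalloproteinase inhibitor, was at 321 against 83.1 CPM and at 414 against 172 CPM. Sfrp1, a secreted Wnt inhibitor, had ratios of 2.70 and 2.34. All 4 were also above the Cyp2f2 set in both libraries.

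Signals and matricellular proteins of injured tissue completed the group. Il6 was 3.28-fold (2.74 to 3.92) higher in members in the metformin library and 1.98-fold (1.81 to 2.16) higher in the control library. Tenascin-C (Tnc) had ratios of 3.76 and 2.92, and thrombospondin-1 (Thbs1), which binds and activates latent TGF-beta, had ratios of 2.69 and 2.24. Ptgs2, the inducible cyclooxygenase, was at 44.1 CPM against 9.53 CPM in the metformin library and at 189 CPM against 50.1 CPM in the control library. The interferon-inducible Ifi27l2a was at 1595 CPM against 662 CPM and at 2520 CPM against 1263 CPM. T cells held Ifi27l2a at 372 and 294 CPM. In the metformin library the Stc1 set was close to the members for Il6, Tnc and Thbs1, at 77.3, 131 and 234 CPM. Members there were at 81.3, 128 and 260 CPM. In the control library the members were higher, with an Il6 UMI in 29.5% of them and 18.7% of that set. Tnc and Thbs1 there were at 460 and 730 CPM in members and 146 and 292 CPM in that set. Ptgs2 and Ifi27l2a were lower in that set than in members in both libraries.

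**Figure D2:**
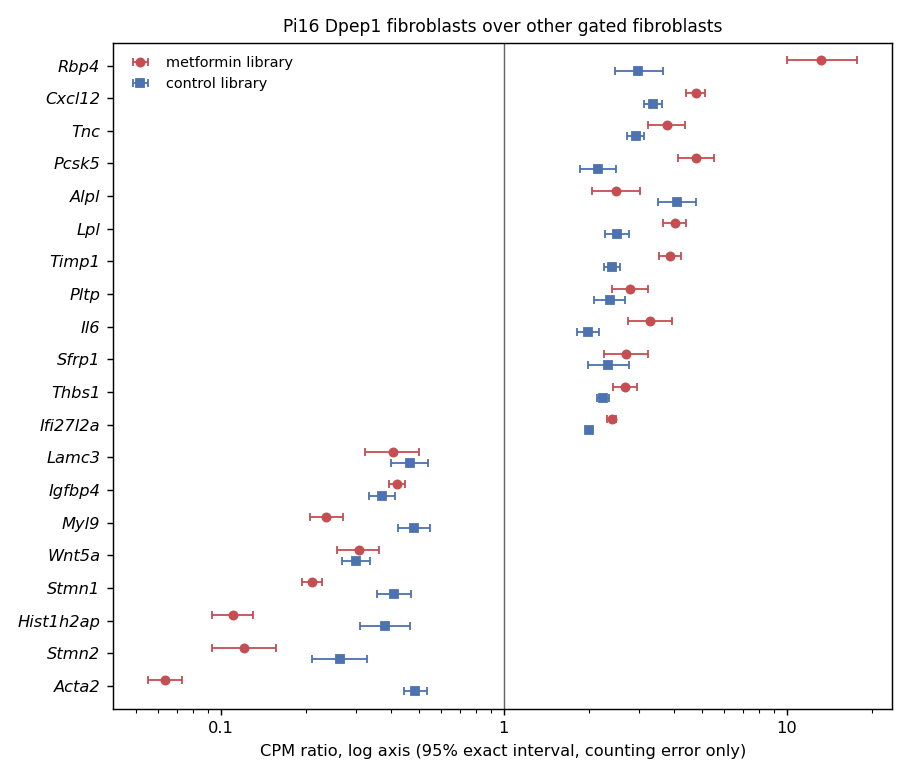
CPM ratio of Pi16 Dpep1 fibroblasts over the other gated fibroblasts (log axis) for the 12 genes highest and the 8 lowest in members, in the metformin library (red circles) and the control library (blue squares); lines are 95% exact intervals. Rbp4 had ratios of 13.2 and 2.99 and Acta2 of 0.0637 and 0.487.

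Low in the members against the other gated fibroblasts together were Wnt5a, contractile genes and genes of dividing cells. Wnt5a, a ligand of non-canonical Wnt signalling, was at 45.9 CPM in members and 150 CPM in other fibroblasts of the metformin library, and at 56.0 and 187 CPM in the control library. The intervals of its ratios, 0.258 to 0.363 in the metformin library and 0.267 to 0.336 in the control library, overlapped. The Cyp2f2 set carried Wnt5a at 237 and 187 CPM. Igfbp4, which binds insulin-like growth factors, had ratios of 0.420 and 0.371, and the laminin chain gene Lamc3 had ratios of 0.405 and 0.465. The Cyp2f2 set was not above the members for Igfbp4, at 49.6 and 32.1 CPM against 352 and 73.5 CPM in members, and held Lamc3 at 28.8 and 34.9 CPM against 28.7 and 36.6 CPM.

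Smooth muscle actin, Acta2, was at 65.9 CPM in members against 1034 CPM in other fibroblasts of the metformin library, and at 97.0 CPM against 199 CPM in the control library. The mural cell markers Rgs5, Myh11, Des and Acta2 summed to 1109 CPM in the other metformin fibroblasts, and their part in the Acta2 ratio was not tested. Myl9, a myosin light chain, had ratios of 0.236 and 0.482. Stmn1, a microtubule regulator abundant in dividing cells, and the replication histone Hist1h2ap had ratios of 0.210 and 0.110 in the metformin library and of 0.409 and 0.380 in the control library. Stmn2, related to Stmn1, had ratios of 0.121 and 0.263. In the Cyp2f2 set Acta2 was at 38.4 and 32.1 CPM, Myl9 at 27.2 and 12.6 CPM and Stmn1 at 75.1 and 31.4 CPM, each below the members, so these low levels were shared with that set.

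The adventitial genes Dpp4, Cd34 and Ly6c1 were not highest in these cells. Over the 27 measured genes of an adventitial list, the median log2 ratio of members over other fibroblasts was 0.77 in the metformin library and -0.09 in the control library, beside 12 genes with the intervals of both libraries above 1 and 4 with both below. Over all 11894 genes those shares were 5.11% and 6.80%. Dpp4 stood at 45.0 CPM in metformin members and 50.1 CPM in control members. In the Plac8 set it stood at 226 and 461 CPM, and Anxa3 at 768 and 604 CPM against 54.7 and 61.8 CPM in members. Cd34 was broad, at 766 and 660 CPM in members and 1207 and 950 CPM in the Cyp2f2 set. Ly6c1 was at 731 and 842 CPM in members and 302 and 656 CPM in the other fibroblasts. In the Plac8 set, of 41 and 44 cells, it was at 1347 and 1427 CPM. Against the other fibroblasts, Dpp4 was higher in metformin members (45.0 against 32.8 CPM) and lower in control members (50.1 against 85.7 CPM). The members thus carried Pi16, Cd34 and Ly6c1, with less Dpp4 and Anxa3 than the Plac8 set.

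Within the members, some genes that the rule had not used rose with the number of the 4 genes detected, and others did not. Cxcl12 was at 314, 448 and 628 CPM in metformin members with 2, 3 and 4 of the genes, and at 284, 346 and 626 CPM in control members. Timp1 was at 128, 226 and 479 CPM in metformin members and at 249, 367 and 575 CPM in control members. Lpl, Pcsk5 and Alpl were also highest with 4 of the genes in both libraries. Median depth went along with the number, at 2577, 4020 and 5156 UMIs in metformin members and 2234, 2853 and 3647 UMIs in control members, and its part was not tested.

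Igfbp4 ran the opposite way, at 497, 385 and 267 CPM in metformin members and at 102, 68.4 and 65.2 CPM in control members. Ptgs2 differed between the libraries. It was at 47.9, 44.4 and 42.4 CPM in metformin members, and at 91.8, 168 and 274 CPM in control members. Tnc was at 85.1, 70.1 and 195 CPM in metformin members and at 255, 452 and 588 CPM in control members.

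**Figure D3:**
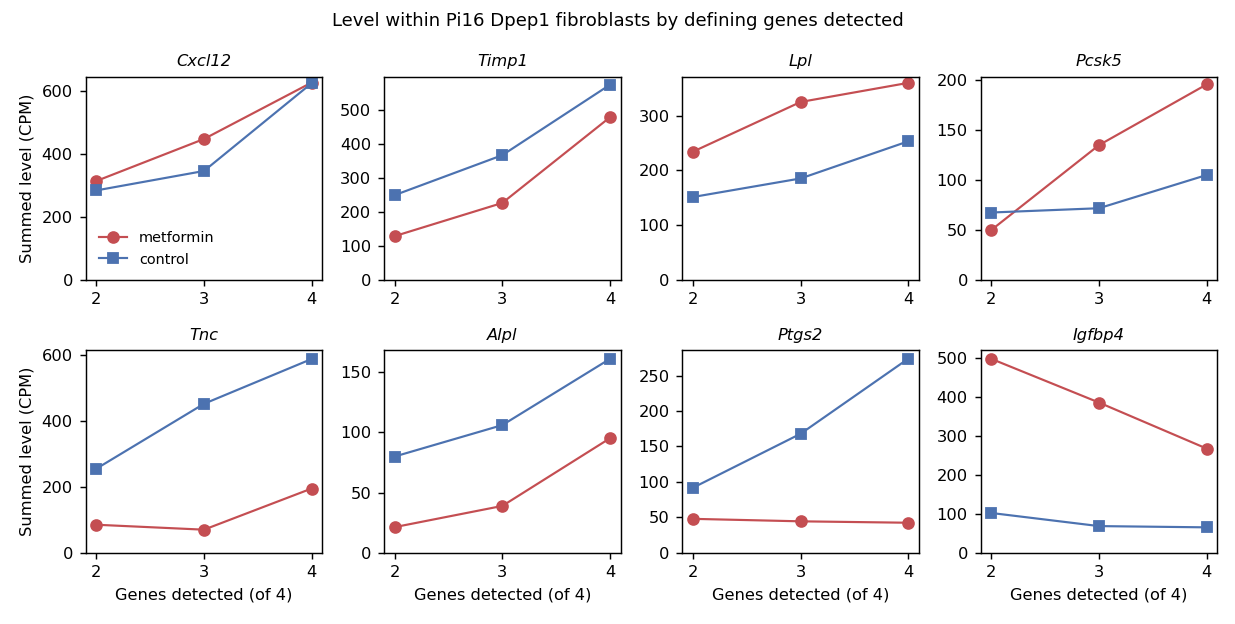
Summed level (CPM, vertical axes) of 8 genes outside the rule in members with 2, 3 or 4 of the 4 defining genes detected, in the metformin library (red circles) and the control library (blue squares). Cxcl12 reached 628 and 626 CPM with 4 genes, and Ptgs2 was at 42.4 CPM in the metformin library and 274 CPM in the control library.

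Members without a Pi16 count numbered 98 in the metformin library (14.4%) and 191 in the control library (9.31%). They were no shallower, with medians of 4360 and 2983 UMIs. Their Igfbp4 level was 954 CPM in the metformin library and 216 CPM in the control library, against 242 and 57.8 CPM in members with Pi16. Postn, encoding periostin, was at 1694 and 906 CPM against 777 and 247 CPM. Alpl was the reverse, at 7.85 and 40.9 CPM against 70.3 and 128 CPM. The Pi16-negative cells thus differed in the same direction in both libraries for these 3 genes, which were chosen after their values were seen.

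Single cells carried some genes far above others. In metformin members the top 10% of cells held 92.4% of Tnc counts and 88.8% of Igfbp4 counts, and in control members 85.3% and 100%. For Cd34 the same share was 29.8% and 30.6%. Tnc and Igfbp4 were thus genes of a minority of members, and Cd34 of most.

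Metformin members and control members differed in collagen, cell division, immediate early and interferon genes. Of 11688 genes with at least 20 counts in members, 407 had a CPM ratio of metformin over control of at least 2 (3.48%) and 474 of at most 0.5 (4.06%). Over all genes tested the median log2 ratio was 0.03, with the interval above 1 for 1993 genes (17.1%) and below 1 for 1854 genes (15.9%). These shares are the background for the interval counts of the gene lists that follow, although intervals are narrower for genes with more counts. Of the 407 genes, 239 (58.7%) were also at least 2-fold higher in the other gated fibroblasts, and of the 474 genes, 243 (51.3%) were also at most 0.5-fold there. Most of the genes in each list thus had a ratio past the same bound in the other fibroblasts. The share of all tested genes past these bounds there was not computed, so the overlap has no background beside it.

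Among the genes highest in metformin members, Igfbp4 was at 352 CPM against 73.5 CPM in control members, a ratio of 4.78 (4.31 to 5.32). An Igfbp4 UMI was found in 21.6% of metformin members and 6.34% of control members, and in 3.86% and 2.97% of T cells. Postn was at 918 CPM against 312 CPM, a ratio of 2.94 (2.78 to 3.11). Periostin is a matricellular protein of growing and healing connective tissue, and its ratio was 2.33 in the other fibroblasts and 2.77 in the Cyp2f2 set. Hpgd, the enzyme that breaks down prostaglandins, was at 155 CPM against 45.0 CPM, and Mgst3, a microsomal glutathione transferase, at 220 CPM against 64.0 CPM.

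Further genes among the highest had varied roles. The glypican gene Gpc3 was at 312 CPM in metformin members and 107 CPM in control members, a ratio of 2.91 (2.64 to 3.20). The imprinted genes Peg3 and Cdkn1c, a zinc finger protein and a cyclin-dependent kinase inhibitor, had ratios of 2.87 (2.46 to 3.35) and 2.80 (2.28 to 3.45), although Cdkn1c was at 0.641 in the Cyp2f2 set. The linker histone gene Hist1h1c had a ratio of 2.66, and Lrrc15, which belongs to another set of the rule, had 2.69. Trichohyalin, Tchh, a protein of the inner root sheath of hair, had a ratio of 14.0, but 1 cell held 89.0% of its metformin counts, and without the highest cell of each library its log2 ratio was 0.70.

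Genes of dividing cells were higher in metformin members. Of 17 division genes, 14 had a ratio of at least 2 and 16 an interval above 1, with a median log2 ratio of 2.19. In the other fibroblasts the median was 2.68. Mki67, which marks cycling cells, was at 26.9 CPM in metformin members and 2.60 CPM in control members, from 89 and 18 UMIs, and Top2a was at 27.5 and 5.50 CPM. Stmn1 was at 208 and 42.8 CPM and Hmgb2 at 239 and 88.4 CPM.

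These counts rested on few cells. At 1500 UMIs per cell, at least 3 of the 17 genes were detected in 38 of 630 metformin members (6.03%, 4.30 to 8.19%) and 25 of 1825 control members (1.37%, 0.888 to 2.02%). The unthinned shares were 16.9% and 6.19%. In T cells the thinned shares were 18.9% and 11.1%. With cells holding a keratinocyte UMI removed, an alternative chosen after the data were seen, the median log2 ratio of the list was 0.86.

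Of the 12 lowest ratios, 7 were of genes known from the epidermis. Cst6, an epidermal protease inhibitor, was at 27.8 CPM in metformin members and 387 CPM in control members. The cornified envelope genes Sprr1a and Sprr1b were at 2.72 and 6.65 CPM in metformin members and at 53.0 and 61.1 CPM in control members. The keratin genes Krt16 and Krt79, the beta-defensin Defb6 and the skin protease Asprv1, with BC100530, had ratios between 0.118 and 0.260. T cells carried Cst6 at 93.2 CPM in the metformin library and 419 CPM in the control library, and Sprr1a at 112 and 224 CPM. In both libraries the members were below the T cells for these 2 genes. Ccl5, a T cell chemokine, was at 0.302 CPM against 60.8 CPM, with 95.7% of its control counts in 1 cell. With keratinocyte-positive cells removed, the log2 ratios of Sprr1b and Asprv1 turned to 0.63 and 0.04 and that of Ccl5 to 1.21. That Ccl5 value rests on at most 1 metformin UMI.

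The remaining 3 were higher in members than in T cells in both libraries. Ptgs2 was at 44.1 CPM in metformin members and 189 CPM in control members, a ratio of 0.233 (0.195 to 0.277), and was found in 64 of 679 and 361 of 2052 cells. At 1500 UMIs per cell the shares with a Ptgs2 UMI were 3.81% and 12.5%, against 0.42% and 0.773% of T cells. Lif, a cytokine of the interleukin-6 family, was at 13.9 CPM against 55.0 CPM, a ratio of 0.253 (0.182 to 0.344). Rasd1, a small GTPase induced by glucocorticoids, was at 11.2 CPM against 65.3 CPM.

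**Figure D4:**
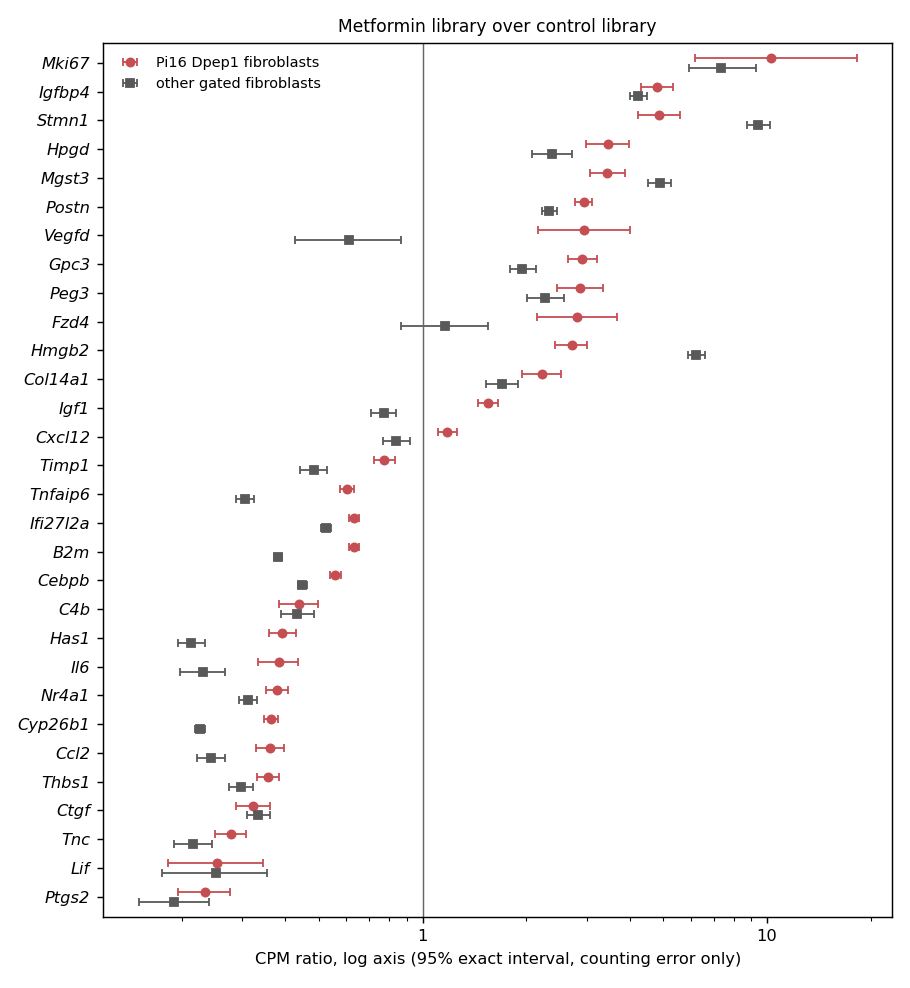
CPM ratio of the metformin library over the control library (log axis) for 30 genes in Pi16 Dpep1 fibroblasts (red circles) and in the other gated fibroblasts (grey squares); lines are 95% exact intervals. Ptgs2 had ratios of 0.233 and 0.190, and Igf1 and Cxcl12, at 1.55 and 1.18 in members, were below 1 in the other fibroblasts. With cells thinned to 1500 UMIs the log2 ratio of Cxcl12 in members was -0.06.

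Immediate early genes, which are induced within minutes of stimulation and also by tissue dissociation, were lower in metformin members. Of 24 genes, 23 had an interval below 1 and 5 had a ratio of at most 0.5, with a median log2 ratio of -0.67 in members and -0.94 in the other fibroblasts. Nr4a1 was at 271 CPM in metformin members and 716 CPM in control members, and Fosb at 623 and 1286 CPM. Maff had a ratio of 0.327 (0.261 to 0.404) and Egr2 of 0.374 (0.284 to 0.488). Heat shock genes were lower by less, with a median of -0.31 and 12 of 14 intervals below 1, and the chaperone Hspa5 was at 452 CPM against 825 CPM. The part of dissociation in the results that follow was not tested.

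Cytokine, prostaglandin and hyaluronan lists had medians below 0. The median log2 ratio of 22 chemokine and cytokine genes was -0.52, with 11 intervals below 1 and 2 above, and -0.48 without Ccl11, a gene of the rule. Ccl2, which attracts monocytes, was at 154 CPM in metformin members and 428 CPM in control members, a ratio of 0.361 (0.328 to 0.396), and Il6 at 81.3 CPM against 213 CPM, a ratio of 0.382 (0.334 to 0.435). Cxcl12 was among the exceptions at 505 CPM against 427 CPM, a ratio of 1.18 (1.11 to 1.26), which was -0.06 on the log2 scale with cells thinned to 1500 UMIs. The Cyp2f2 set had a Cxcl12 ratio of 0.979.

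For 14 measured prostaglandin genes the median was -0.17, with 2 intervals above 1 and 7 below. Ptgs2 was low and Hpgd high, and Pla2g2e, a secreted phospholipase, had a ratio of 0.338. The 14 measured hyaluronan genes had a median of -0.33, with 1 interval above 1 and 7 below. Has1, a hyaluronan synthase, was at 173 CPM in metformin members and 440 CPM in control members, and Cd44, the hyaluronan receptor, at 146 and 232 CPM. Itih5, whose protein joins hyaluronan, stood apart at 2.09 (1.80 to 2.43).

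Tnfaip6, Il6 and Lif share a sequence feature and are shown here, chosen after their values were seen. Immediate early genes encode the subunits of AP-1, whose binding heptamer is TGANTCA. Of the 4 defining genes, Tnfaip6 had this heptamer in the 250 bases before its start in the RefSeq table for GRCm38.p6, and Pi16, Dpep1 and Cpxm1 did not. Of the 12 genes lowest in metformin members, 7 were in the table, and 3 of these (Lif, Sprr1a and Sprr1b) had it. Of the 12 highest over other fibroblasts, 8 were in the table, and Il6 and Rbp4 had it. Of the 12 highest in metformin members, 9 were in the table, and Lrrc15 had it. Both strands were searched, and the heptamer was in that window for 2113 of 27025 genes (7.82%), or 2217 of 32851 promoters (6.75%). Capitals mark the heptamer, each sequence runs 5′ to 3′ on the plus strand and ends at the base before the RefSeq start, and a match is a description and not a bound site.
Tnfaip6, chr2:52037863-52038112: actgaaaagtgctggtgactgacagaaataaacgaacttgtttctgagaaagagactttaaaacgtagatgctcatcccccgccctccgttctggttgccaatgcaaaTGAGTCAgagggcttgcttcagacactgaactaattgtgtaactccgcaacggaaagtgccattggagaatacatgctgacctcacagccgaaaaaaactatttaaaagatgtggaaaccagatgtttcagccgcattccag
Il6, chr5:30012864-30013113: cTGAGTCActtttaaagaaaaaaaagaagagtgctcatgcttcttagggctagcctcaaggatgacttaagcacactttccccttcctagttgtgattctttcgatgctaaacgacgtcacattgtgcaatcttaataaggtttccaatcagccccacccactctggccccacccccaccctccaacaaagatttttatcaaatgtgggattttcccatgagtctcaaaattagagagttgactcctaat
Lif, chr11:4257318-4257567: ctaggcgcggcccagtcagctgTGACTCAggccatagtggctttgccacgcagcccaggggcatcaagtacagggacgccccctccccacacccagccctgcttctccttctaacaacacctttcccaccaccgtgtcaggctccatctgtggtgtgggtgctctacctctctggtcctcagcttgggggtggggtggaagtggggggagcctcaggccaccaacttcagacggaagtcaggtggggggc

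The heptamer lay 135 bases before the RefSeq start in Tnfaip6, 242 in Il6 and 221 in Lif. That start is 104 bases downstream of the GENCODE start used for coordinates elsewhere in Tnfaip6, 11 in Lif and 0 in Il6. Beside these sequences, Tnfaip6, whose detection helped choose the cells, was at 693 CPM in metformin members and 1147 CPM in control members, Il6 at 81.3 and 213 CPM, and Lif at 13.9 and 55.0 CPM. Of the other genes named with the heptamer, Sprr1a and Sprr1b were lower in metformin members. Rbp4 (85.5 against 58.9 CPM) and Lrrc15 (69.8 against 25.9 CPM) were higher.

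TGF-beta and activin genes were low as well. Of 21 genes, 16 had an interval below 1 and 1 above, with a median log2 ratio of -0.65. Thbs1 was at 260 CPM in metformin members and 730 CPM in control members, and Ctgf, a matricellular target of TGF-beta, at 106 CPM against 329 CPM, a ratio of 0.322 (0.287 to 0.360). The activin subunit genes Inhba and Inhbb had ratios of 0.349 and 0.429. Tnc was at 128 CPM against 460 CPM. Each of these 5 genes was also below 1 in the other fibroblasts and in the Cyp2f2 set.

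Interferon response genes had the lowest median of the 30 lists. Of 24 interferon response genes, 20 had an interval below 1 and 1 above, and 8 had a ratio of at most 0.5, with a median log2 ratio of -0.88 in members and -1.36 in other fibroblasts. Iigp1, an interferon-induced GTPase, was at 25.7 CPM in metformin members and 66.4 CPM in control members, and Irf7, a regulator of type I interferon, at 30.5 CPM against 64.1 CPM. Of 11 genes of MHC class I, 9 had an interval below 1 and none above, with a median of -0.63. B2m was at 1238 CPM against 1958 CPM, and H2-K1 at 908 CPM against 1570 CPM.

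For 12 measured complement genes the median was -0.09, with 5 intervals below 1 and 2 above. C4b was at 89.1 CPM in metformin members and 204 CPM in control members, and Serping1, the C1 inhibitor, at 1188 and 1804 CPM. In the other fibroblasts the complement median was -0.93.

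Collagen genes stood the other way. The median log2 ratio of 21 collagen chain genes was 0.36, with 14 intervals above 1 and 3 below, and -0.18 in the other fibroblasts. Without the gate genes Col1a1, Col1a2 and Col3a1 it was 0.34 over 18 genes, with 11 above and 3 below, and -0.05 in the other fibroblasts. Col1a1 was at 9280 CPM in metformin members and 7242 CPM in control members and Col3a1 at 7377 and 5123 CPM, and both are genes of the fibroblast gate. Col14a1, a collagen that binds fibrils, was at 149 CPM against 67.1 CPM, a ratio of 2.22 (1.95 to 2.53), and Col6a3 at 701 CPM against 476 CPM. Col12a1, of the same family as Col14a1, was at 104 CPM against 191 CPM. Members and other fibroblasts were on opposite sides of 1 for Col1a1, Col3a1 and Col12a1. In the Cyp2f2 set the ratios were 1.29 for Col1a1, 1.24 for Col3a1, 1.72 for Col6a3 and 3.43 for Col14a1. Each of these had an interval above 1, so the higher levels of these genes were shared with that set. Col12a1 had a ratio of 1.04 there, with an interval that covered 1.

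The other matrix lists had medians closer to 0 than the collagen list, each with more intervals below 1 than above. The median was 0.03 for 10 small leucine-rich proteoglycans (3 intervals above 1, 5 below; -0.16 without the rule genes Dcn, Fmod and Kera), -0.10 for 20 elastic fibre genes (6 above, 10 below), -0.16 for 27 proteinases and inhibitors (6 above, 13 below) and -0.09 for 34 large matrix glycoproteins (8 above, 15 below). Decorin, Dcn, was at 7899 CPM in metformin members and 10788 CPM in control members, and biglycan, Bgn, at 1345 and 1836 CPM. Fbln1, an elastic fibre protein, had a ratio of 0.574. The medians in the other fibroblasts ranged lower, at -0.51, -0.62, -0.98 and -0.80 for these lists in the same order.

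**Figure D5:**
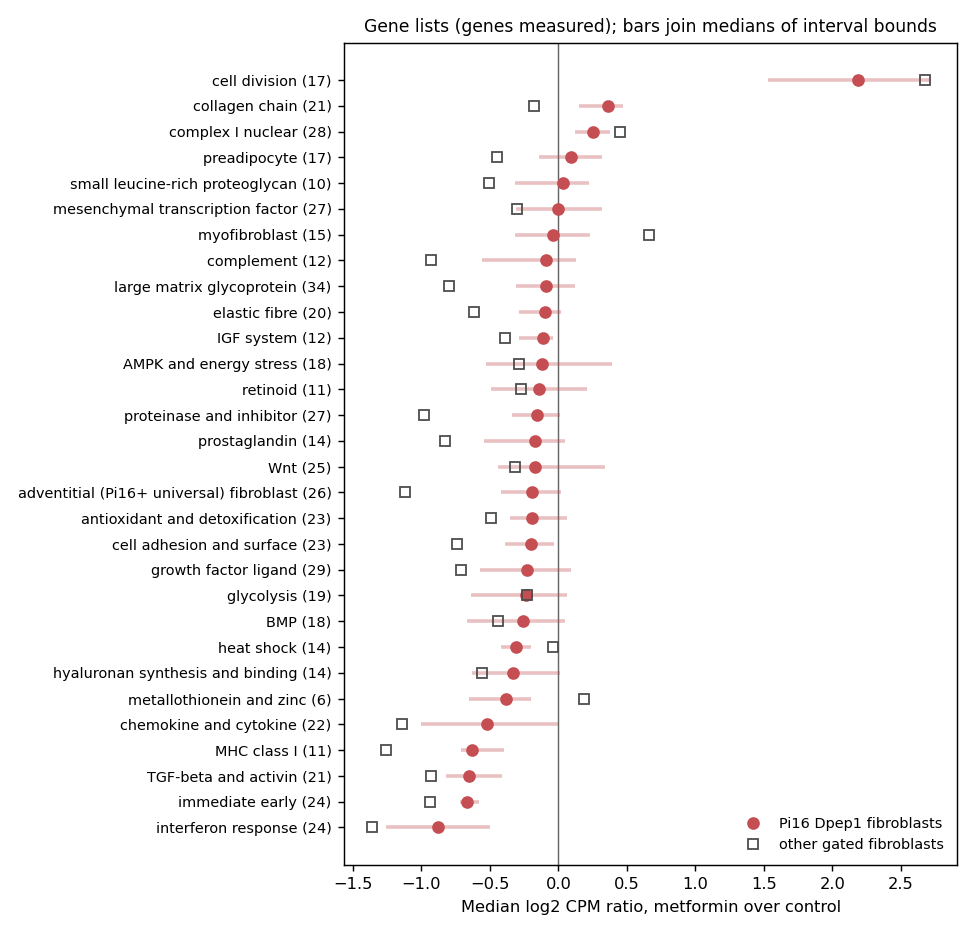
Median log2 CPM ratio of metformin over control (horizontal axis) for 30 gene lists in Pi16 Dpep1 fibroblasts (red circles) and other gated fibroblasts (open squares); bars join the medians of the lower and upper interval bounds in members, and the number of genes measured is in brackets. Cell division stood at 2.19 and 2.68, and interferon response at -0.88 and -1.36.

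Growth factor genes varied one by one. Igf1, the main insulin-like growth factor of the dermis, was at 439 CPM in metformin members and 283 CPM in control members, a ratio of 1.55 (1.45 to 1.66), and had a UMI in 39.5% and 28.6% of members thinned to 1500 UMIs, against 0.21% and 0.258% of T cells. Its protease Pappa, which frees it from Igfbp4, had a ratio of 0.409 (0.333 to 0.499), and the receptor gene Igf1r at 74.3 CPM against 112 CPM. The median over 12 genes of the IGF system was -0.11, with 3 intervals above 1 and 6 below. Ptn, encoding the heparin-binding factor pleiotrophin, was at 36.9 CPM against 6.08 CPM, and Vegfd, a lymphatic growth factor, at 32.3 CPM against 11.0 CPM. Over 29 growth factor ligands the median was -0.23, with 3 intervals above 1 and 13 below.

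In the Wnt list of 25 genes the median was -0.17, with 7 intervals above 1 and 8 below. The receptor gene Fzd4 was at 41.4 CPM in metformin members and 14.8 CPM in control members, a ratio of 2.80 (2.15 to 3.66). Lef1, a transcription factor of Wnt signalling, was at 13.0 CPM against 0.868 CPM, from 43 and 6 UMIs. Wnt5a had a ratio of 0.820 (0.675 to 0.992). For 18 BMP genes the median was -0.26, with 9 intervals below 1 and none above, and the antagonist Nog was at 3.93 CPM against 16.5 CPM. Without the genes of the rule the medians were -0.25 for BMP, -0.20 for Wnt, -0.07 for the IGF system and -0.09 for retinoid genes.

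The genes of respiratory complex I were higher by a small and even step in metformin members. Of 28 nuclear genes, 27 had a ratio above 1 and 25 an interval above 1, none reached 2, and the median log2 ratio was 0.25. Ndufs3 was at 125 CPM in metformin members and 90.3 CPM in control members, a ratio of 1.39 (1.22 to 1.57), and Ndufa4 at 471 and 361 CPM. In the other fibroblasts the median was 0.45. In the Cyp2f2 set the intervals covered 1 for the named genes of the list. These were Ndufs3 (0.802), Ndufv2 (0.860), Ndufa4 (0.930), Ndufs8 (1.04), Ndufa6 (1.07), Ndufb8 (1.18) and Ndufs1 (1.21). The median of all genes tested was 0.03, and the mitochondrial share of counts was a median of 1.99% in metformin members and 1.13% in control members.

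Glycolysis and energy stress genes showed no such step. For 19 glycolysis genes the median was -0.24, with 1 interval above 1 and 9 below, and the glucose transporter gene Slc2a1 was at 4.83 CPM in metformin members and 13.7 CPM in control members. For 18 genes of AMPK and energy stress it was -0.12, with 2 above and 5 below. Sesn3, a sestrin, was at 73.4 CPM against 36.2 CPM, and Gdf15, a stress-induced cytokine, at 30.2 CPM against 69.0 CPM. Antioxidant and detoxification genes had a median of -0.19 over 23 genes, with 4 intervals above 1 and 10 below, and extracellular superoxide dismutase, Sod3, was at 157 CPM against 388 CPM.

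Preadipocyte and retinoid genes differed in both directions. The 17 preadipocyte genes had a median of 0.09, with 5 intervals above 1 and 4 below. Lpl was at 325 CPM in metformin members and 201 CPM in control members, and Fabp4, a fatty acid binding protein, at 118 CPM against 59.8 CPM, a log2 ratio that turned to -0.07 with keratinocyte-positive cells removed. The transcription factor genes Cebpb and Cebpd, which act early in adipogenesis and are also induced by inflammation, were at 1134 and 385 CPM in metformin members and at 2034 and 950 CPM in control members. For 11 retinoid genes the median was -0.14, with 2 intervals above 1 and 4 below, and Cyp26b1, which degrades retinoic acid, was at 645 CPM against 1775 CPM.

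The remaining lists had medians from -0.38 to -0.00, each with more intervals below 1 than above. The adventitial list had a median of -0.19 over 26 genes (6 intervals above 1, 13 below), cell adhesion and surface genes -0.20 over 23 (4 above, 12 below), and mesenchymal transcription factors -0.00 over 27 (4 above, 7 below). The 6 metallothionein and zinc genes had a median of -0.38 with 3 intervals below 1, and Mt1, a metal-binding protein, was at 3259 CPM in metformin members and 5107 CPM in control members. The 15 myofibroblast genes had a median of -0.04, with 4 intervals above 1 and 5 below. Tagln, a contractile protein gene of that list, was at 108 CPM against 184 CPM, and Runx1 at 18.1 CPM against 48.5 CPM.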

How the data were processed

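The deposited values are unnormalized UMI counts for 31053 mouse genes in each barcode. Per the file headers the authors ran Cell Ranger 4.0.0, and the submitters' processing notes name GRCm38. The settings of that run were not given in the sources used here. The metformin and control matrices were analysed, and the Shi-Bi-Man matrix was used only for its barcodes.

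Members were found by the rule stated above. T cells were used as a class that should lack fibroblast genes. They had at least 3 UMIs of Cd3d, Cd3e, Cd3g, Trdc and Trac together and at least 1 of Ptprc. They also had fewer than 30 UMIs of Krt5 and Krt14 together and fewer than 20 of Col1a1, Col1a2, Col3a1 and Dcn together. Doublets were called with Scrublet (scanpy 1.11.5, expected rate 8%) and removed only as an alternative. Counts were summed per library and group, and ratios of CPM carry exact conditional binomial intervals (scipy 1.17.1). A count of 0 was set to 3 for medians and for the log2 ratios of genes under the alternative settings. Genes needed at least 20 counts. Thinning drew 1500 UMIs per cell without replacement. The ratio and interval code was tested on simulated counts.

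Named genes were the 12 highest and 8 lowest of members over other fibroblasts by the less extreme library (at least 100 counts and 50 CPM), the 12 highest and 12 lowest of metformin over control (at least 100 counts, 50 CPM), the markers, the genes of the rule, and up to 4 per list with at least 50 counts. Ranks excluded genes of mitochondria, ribosomal proteins and haemoglobin. The members, the 30 lists and the rule were chosen with earlier results of these data known, and genes can stand in more than 1 list. One gene of the lists is not reported here. Coordinates are from GENCODE for GRCm38. Python 3.11.15 was used.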

Additional observations from a re-analysis of the deposited data

Results flagged for a closer look

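For 13 of the named genes outside the rule, the metformin over control ratio was on one side of 1 in Pi16 Dpep1 fibroblasts and on the opposite side in the other gated fibroblasts, with both intervals off 1 and each ratio at least 25% above or 20% below 1. Apart from the markers, genes outside the rule were named for large ratios. The share of all tested genes that met these limits was not computed. The difference between the groups of cells was not tested. The make-up of the other fibroblasts also differed between the libraries, with the Col11a1 set at 15.2% and 1.51% of gated fibroblasts. Above 1 in members and below 1 in the others were Vegfd (2.94 and 0.610), Fabp4 (1.97 and 0.516), Col5a3 (1.80 and 0.748), Cd36, a fatty acid transporter (1.59 and 0.508), Igf1 (1.55 and 0.772) and Rbp4 (1.45 and 0.328). Below 1 in members and above 1 in the others were Acta2 (0.679 and 5.19), Serpine2, a protease inhibitor (0.671 and 1.35), Tagln (0.586 and 2.17), Mt2 (0.549 and 1.25), Col12a1 (0.543 and 2.27), Matn4, a matrilin (0.287 and 1.53), and Ccl5 (0.00497 and 4.23). In the Cyp2f2 set the interval was off 1 for Col5a3 (1.49, 1.11 to 2.01) and Mt2 (0.651, 0.606 to 0.699). It covered 1 there for Cd36 (4.58), Rbp4 (1.88), Igf1 (1.23), Acta2 (1.19), Vegfd (1.14), Col12a1 (1.04), Fabp4 (0.915), Matn4 (0.763), Tagln (0.746) and Serpine2 (0.534), and Ccl5 had no count in the control cells of that set. The Ccl5 value rests on 1 control cell with 95.7% of the counts and on 1 metformin UMI. Without the highest cell of each library its log2 ratio in members was -1.51, with the metformin count of 0 set to 3. An Acta2 UMI was found in 7.81% of metformin members and 4.58% of control members, the reverse of its ratio. In members the signs of Acta2, Fabp4 and Ccl5 turned under alternative settings given in the next section.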

How the results depend on the processing

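No paired analysis was possible because each agent has 1 library. The share of members, lower by 18.1 points in the metformin library (a difference of -18.1), was -14.2 points with at least 3 of the 4 genes required, -20.9 points when thinned to 1500 UMIs and -13.4 points with a collagen sum of at least 50 UMIs. With at least 5 counts in place of 20, 1005 genes were 2-fold higher and 971 2-fold lower in metformin members, and 71 were 2-fold higher and 546 2-fold lower in members than in other fibroblasts. Thinned to 1500 UMIs, 262 genes were 2-fold higher in metformin members, and 20 were higher and 100 lower in members than in other fibroblasts. With cells holding a keratinocyte UMI removed, a setting added after the data were seen, 20 were higher and 140 lower in members than in others, and on the log2 scale the cell division median was 0.86. Under that removal, signs of metformin over control in members turned for the myofibroblast median (0.33), Ccl5 (1.21), Sprr1b (0.63), Asprv1 (0.04), Timp1 (0.04), Hspb1 (0.16), Fabp4 (-0.07), Crabp2 (0.04) and Acta2 (0.58). Acta2 also turned as a mean over cells (0.05), without doublets (0.09) and when thinned (0.10), and thinning turned Cxcl12 (-0.06) and the IGF system median (0.12). A sign was counted as turned for a gene only if its main interval was off 1. For a list median it was counted only outside the range between the medians of its interval bounds. Removing mitochondrial, ribosomal protein and haemoglobin counts or scaling by the median ratio turned no sign by that count. Neither did a mitochondrial limit of 8% or leaving out the highest cell of each gene. The causes were not tested. Depth limits the division genes, Ccl5 in metformin members, Lef1, Nog and Slc2a1, which rest on few counts.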
